A study of Homo sapiens with 6 samples.

Results

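Cholesterol synthesis genes and the genes of their SREBP2 control were described in RNA sequencing libraries of macrophages kept in tumour cell medium. The set was given as 28 gene symbols, and all 28 were found among the 17513 genes of the deposited tables. It holds 21 enzymes of the route from acetyl-CoA to cholesterol and its isoprenoid branch, or their scaffold, 6 genes of the SREBP2 switch and the sterol carrier STARD4. Enzymes of the route outside this set were not analysed here. The rule names genes and uses no measured value, though the set was drawn up with earlier results of these data known.

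The 6 libraries form 2 groups of 3, which the labels tell apart by the hairpin, shNC or shSPP1#2. According to the series description, the RNA came from macrophages made from THP1 cells (a human leukemia line of monocytic type). These had spent 48 h in medium taken from KYSE150 cells (a line of human esophageal squamous carcinoma). The KYSE150 cells carried shNC, the reference hairpin, or shSPP1#2, 1 hairpin against SPP1, which encodes the secreted protein osteopontin, and both media therefore come from hairpin-bearing cells. The sample labels name KYSE150 itself as the cell line, and the groups are called shNC medium and shSPP1#2 medium here.

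All 12 macrophage markers examined, among them the blood cell membrane protein LAPTM5 and the integrin ITGAX, reached 1 FPKM in every library, with a median of 186 to 195 FPKM. None of 12 squamous epithelial markers did in any library, and their summed level was 0.77 to 0.93 FPKM in shNC medium and 0.67 to 1.17 FPKM in shSPP1#2 medium. CD163 was the lowest of the macrophage markers at 1.33 to 1.69 FPKM. By these markers the libraries held RNA of monocyte or macrophage type rather than of squamous epithelium, against the labelled KYSE150. Whether the list tells macrophages from THP1 cells not made into macrophages was not tested. Of 7 fibroblast markers 3 reached 1 FPKM, the highest being COL1A1 at 16.3 to 19.1 FPKM, and of 4 T and NK cell markers present 2 or 3 did, the highest being GZMB at 8.19 to 12.2 FPKM. Between media 9 of the 12 macrophage markers had a negative log2 fold change and none was called. Of all genes tested, 49.9% had a positive log2 fold change. The groups did not overlap for 3 of the 12 markers, and for 11.1% of all genes tested. Among these 3 were FCER1G at -0.18 and AIF1 at -0.21 (edgeR adjusted p = 0.575 and 0.601). The third was CD163, with the most negative log2 fold change of the 12 markers, -0.23. It measured 1.69, 1.51 and 1.55 FPKM in shNC medium and 1.39, 1.33 and 1.38 FPKM in shSPP1#2 medium. The part of these markers in the results on the set was not tested. Total estimated counts were 18113591 to 20626346 per library. In a principal component analysis of log2 CPM, the first component (25.2% of the variance) set off shNC replicate 2 (22.5, the others -10.5 to 1.63). The second, with a similar share (22.2%), set off shSPP1#2 replicate 2 (20.3, the others -13.8 to 0.64). The labels do not say whether replicates were separate cultures; the p-values therefore measure the spread of these libraries alone, which may be technical. In such bulk RNA, fewer cells of a type and less RNA per cell cannot be told apart.

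Cholesterol is built from acetyl-CoA by way of mevalonate, the isoprenoid diphosphates, squalene and lanosterol. SREBP2, encoded by SREBF2, is a transcription factor made as an endoplasmic reticulum membrane protein. When membrane sterol is low, SCAP escorts it to the Golgi, where the proteases encoded by MBTPS1 and MBTPS2 release its active part. When sterol is high, INSIG proteins hold SCAP in the endoplasmic reticulum. INSIG1 is itself a target of SREBP2, and macrophages balance this synthesis against the cholesterol they take up with lipoproteins and debris.

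Promoter sequence is shown for 4 genes, because it shows letters known from SREBP2 control beside the switch gene SREBF2, its feedback partner INSIG1, the early enzyme HMGCS1 and, as a contrast, LBR. LBR is the gene of the set with the smallest p in the comparison of media. The stretches come from RefSeq on GRCh38.p14 and start 250 bases before the annotated start, the one furthest upstream where a gene has several. They end before the first base that GENCODE v29 places in an exon of the gene. This left out the last 26 bases before that start for SREBF2, 102 for INSIG1, 100 for HMGCS1 and 104 for LBR. The 4 stretches therefore cover unlike windows. Capitals mark 3 motifs searched on both strands: TCACNCCAC (the core of a sterol regulatory element), CCAAT (the NF-Y box, ATTGG when read on the other strand) and GGGCGG (the GC box, CCGCCC on the other strand). In INSIG1 a pair of GC boxes share a base, and no other printed matches overlap.
SREBF2, chr22:41832855-41833078, plus strand: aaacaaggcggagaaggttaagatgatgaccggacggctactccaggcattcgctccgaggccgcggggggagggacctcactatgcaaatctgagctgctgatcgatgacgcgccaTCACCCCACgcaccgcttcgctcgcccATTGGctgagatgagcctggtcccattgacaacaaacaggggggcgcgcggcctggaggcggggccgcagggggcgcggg
INSIG1, chr7:155297628-155297775, plus strand: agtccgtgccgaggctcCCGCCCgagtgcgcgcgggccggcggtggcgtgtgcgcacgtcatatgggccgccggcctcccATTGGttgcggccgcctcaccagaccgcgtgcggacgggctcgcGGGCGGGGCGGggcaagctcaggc
HMGCS1, chr5:43313513-43313662, minus strand: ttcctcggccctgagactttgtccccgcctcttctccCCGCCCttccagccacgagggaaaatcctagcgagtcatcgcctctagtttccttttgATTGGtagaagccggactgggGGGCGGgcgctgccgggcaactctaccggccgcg
LBR, chr1:225428926-225429071, minus strand: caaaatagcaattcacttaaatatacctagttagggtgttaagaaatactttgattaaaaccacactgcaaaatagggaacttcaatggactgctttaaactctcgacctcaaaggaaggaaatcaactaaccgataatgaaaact

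The SREBF2 stretch holds the sterol element core 133 bases before the annotated start and an NF-Y box 106 bases before it. The INSIG1 stretch holds 1 NF-Y box and 3 GC boxes, the HMGCS1 stretch 1 and 2, and the LBR stretch none of the 3 motifs. G and C make up 65.2%, 77.7%, 63.3% and 33.6% of these stretches in the same order. The SREBF2 stretch also overlaps an exon of the antisense gene SREBF2-AS1, to an extent that was not measured. Over windows of 250 bases before to 50 after each start, promoters of 25 of the 28 genes were in the RefSeq table. Of these, 1 gene (SREBF2, 4%) held TCACNCCAC, against 1.39% of all 27305 genes in the table. Only exact matches to these letters were counted, so a variant of the element would have been missed. CCAAT was present for 18 genes (72%), against 39.7% of all genes, and GGGCGG for 21 (84%), against 48.3%. TM7SF2, the second enzyme of the reaction that LBR carries out, held both CCAAT and GGGCGG. The switch genes MBTPS1 and MBTPS2 held none of the 3 motifs, as LBR did, so their absence was not particular to LBR. These matches are a description of letters in the window, with some genes having several annotated starts and all genes including noncoding ones.

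Levels in the set spanned 133-fold from SCAP to SQLE, and 122-fold among the genes of the route alone, and each of the 28 genes lay above the median gene of the table (3.42 FPKM). SQLE, squalene monooxygenase, was the most abundant of the set at 701 FPKM over the 6 libraries, rank 84 of all genes, and made up 27.2% of the summed level of the set. INSIG1 followed at 255 FPKM, then FDFT1 (squalene synthase) at 240 FPKM, MSMO1 (methylsterol monooxygenase) at 230 FPKM and FDPS (farnesyl diphosphate synthase) at 217 FPKM. SQLE lay clear of INSIG1 in every library, whereas neighbours from INSIG1 to FDPS overlapped in their ranges. The lowest levels were those of SCAP at 5.29 FPKM, TM7SF2 at 5.75 FPKM and MVK (mevalonate kinase) at 6.11 FPKM, again with overlapping ranges. Of the 27 neighbouring pairs in the order, 16 overlapped.

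**Figure D1:**
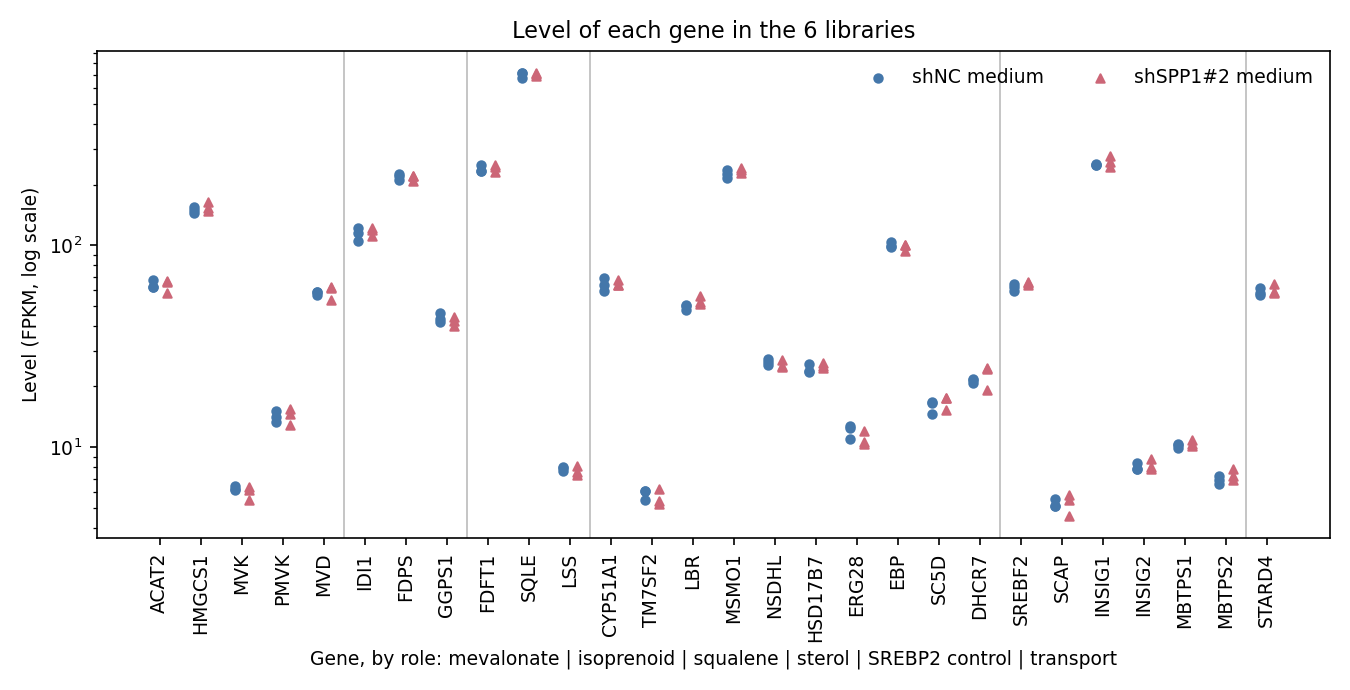
Level of each gene in FPKM on a log axis, with 1 point per library (circles shNC medium, triangles shSPP1#2 medium) and the genes in order of the route. The spread between genes, from 5.29 to 701 FPKM, is far wider than any gap between the media.

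Steps that follow each other in the route could differ widely in level. In the mevalonate part, HMGCS1 (HMG-CoA synthase) measured 145 to 163 FPKM, and ACAT2, the cytosolic thiolase before it, 58.3 to 67.2 FPKM. The 2 kinases that follow were far lower, with MVK at 5.45 to 6.41 FPKM and PMVK (phosphomevalonate kinase) at 12.9 to 15.4 FPKM. MVD, the decarboxylase that ends this part, measured 53.4 to 62.5 FPKM.

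In the isoprenoid part, IDI1 (the isomerase) measured 105 to 122 FPKM and FDPS 208 to 227 FPKM. GGPS1, which makes geranylgeranyl diphosphate for protein prenylation, measured 39.9 to 46.1 FPKM. In the squalene part, SQLE measured 673 to 714 FPKM and FDFT1 230 to 251 FPKM, while LSS, which closes the product of SQLE into lanosterol, measured 7.33 to 8.07 FPKM. The enzymes on either side of the epoxide were thus the most abundant and the fifth least abundant of the set.

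Among the 10 genes of the sterol part, MSMO1 (216 to 241 FPKM) and the sterol isomerase EBP (93.5 to 104 FPKM) were the most abundant. CYP51A1, the lanosterol demethylase, measured 59.3 to 69.0 FPKM. The C4 demethylation partners of MSMO1 were lower: NSDHL, a decarboxylating dehydrogenase, at 24.8 to 27.4 FPKM, HSD17B7, a ketoreductase, at 23.5 to 25.99 FPKM, and ERG28, the scaffold that tethers them, at 10.3 to 12.8 FPKM. The late enzymes DHCR7 and SC5D, which set the final double bonds, measured 19.3 to 24.7 and 14.6 to 17.6 FPKM.

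LBR and TM7SF2 carry out the same C14 reduction, and LBR, also a protein of the inner nuclear membrane, was the more abundant. The FPKM ratio of LBR to TM7SF2 was 8.32, 7.82 and 9.17 in shNC replicates 1, 2 and 3, and 10.02, 8.29 and 10.3 in the shSPP1#2 replicates. The ranges overlapped at shSPP1#2 replicate 2. The means were 8.44 ± 0.679 (SD, n = 3) and 9.54 ± 1.09 (SD, n = 3), a log2 difference of 0.17 (two-sided exact permutation p = 0.3, Benjamini-Hochberg 0.6 over 2 ratios, where 3 against 3 cannot go below 0.1). That difference was lowest, 0.11, when shSPP1#2 replicate 3 was left out and highest, 0.27, when shSPP1#2 replicate 2 was.

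Levels of the SREBP2 switch spanned 48.3-fold from SCAP to INSIG1. The level of SREBF2 in FPKM was 62.0, 59.6 and 64.0 in the shNC libraries (replicates 1, 2 and 3) and 65.4, 65.9 and 64.0 in those of shSPP1#2 medium. In 2 of the 3 shSPP1#2 libraries it was above every shNC library, and shSPP1#2 replicate 3 (63.95 FPKM) lay just under shNC replicate 3 (64.03 FPKM). SCAP, its escort, measured 5.14, 5.56 and 5.10 FPKM in shNC medium and 4.58, 5.83 and 5.51 FPKM in shSPP1#2 medium, where both the lowest and the highest value of the 6 occurred. The site proteases measured 9.97 to 10.9 FPKM (MBTPS1) and 6.61 to 7.82 FPKM (MBTPS2).

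INSIG1 and INSIG2 retain SCAP in the same way, and INSIG1 was by far the more abundant. The FPKM of INSIG1 was 250.9, 253.8 and 250.6 in shNC medium (replicates 1, 2 and 3) and 257, 276 and 244 in shSPP1#2 medium. INSIG2 measured 7.80, 8.33 and 7.81 FPKM in shNC medium, and 7.95, 8.70 and 7.82 FPKM in shSPP1#2 medium. For both genes shSPP1#2 replicate 2 was the highest of the 6 libraries, and the groups overlapped. The INSIG1 to INSIG2 ratio was 31.6 ± 0.955 (SD, n = 3) in shNC medium and 31.7 ± 0.604 (SD, n = 3) in shSPP1#2 medium, a log2 difference of 0.0075 (two-sided exact permutation p = 0.8, Benjamini-Hochberg 0.8).

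No gene of the set passed the test between media. In the edgeR quasi-likelihood fit 0 of 28 had an adjusted p below 0.05, and adjusted p ran from 0.673 to 0.998. Over all 13555 genes tested 0% were called. The log2 fold changes (shSPP1#2 minus shNC medium) ran from -0.14 for ERG28 to 0.11 for LBR, with a median of 0.016 against -0.00030 over all genes tested. Of the 28, 19 were positive and 9 negative, where 49.9% of all genes tested were positive. The 95% intervals lay within 0.2 of 0 for 23 genes and within 0.32 for all 28, that is between 0.806-fold and 1.18-fold. Limma on FPKM also called 0 of the 28, and DESeq2 called 0 of the 17 for which it gave an adjusted p (smallest 0.564), with none given for the other 11.

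**Figure D2:**
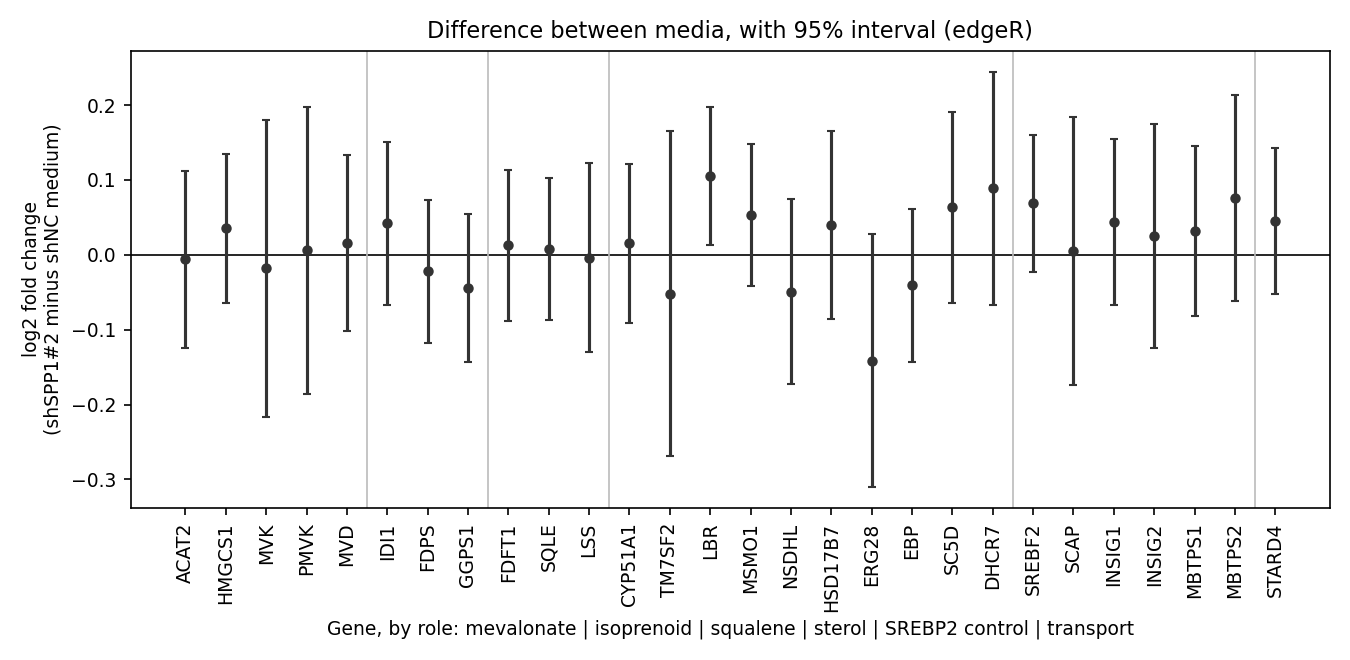
log2 fold change of each gene, shSPP1#2 minus shNC medium, with its 95% interval from the edgeR fit. The interval of LBR alone leaves out 0 (0.013 to 0.20), and the bounds of all 28 lie between -0.31 and 0.24.

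LBR was the single gene of the 28 with an unadjusted p below 0.05 and with groups that did not overlap; 6.85% and 11.1% of all genes tested met these rules. On the TMM-scaled CPM scale it measured 185, 177 and 184 in shNC replicates 1, 2 and 3, and 193, 191 and 203 in the shSPP1#2 replicates. All 3 shSPP1#2 libraries thus lay above all 3 shNC libraries, by a margin smaller than the spread within either group. The log2 fold change was 0.11 with a standard error of 0.044 (1.08-fold, unadjusted p = 0.0283, edgeR adjusted p = 0.673). Without shNC replicate 2, the library that stood apart on the first component, the edgeR log2 fold change was 0.085 (unadjusted p = 0.107, adjusted p = 1). Without shSPP1#2 replicate 3 it was 0.079 (edgeR unadjusted p = 0.127, adjusted p = 0.849). LBR lies on the minus strand of chromosome 1, 225401502 to 225428925 (GENCODE v29, GRCh38), and no exon of another gene covers its exons.

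ERG28 had the most negative difference. Its TMM-scaled CPM was 28.2, 29.5 and 24.8 in shNC replicates 1, 2 and 3, and 23.9, 27.6 and 23.2 in the shSPP1#2 replicates. Each group had 1 library within the range of the other, shNC replicate 3 and shSPP1#2 replicate 2. The log2 fold change was -0.14 (95% interval -0.31 to 0.028, edgeR adjusted p = 0.788). It reached -0.22 without shSPP1#2 replicate 2 (edgeR unadjusted p = 0.0133, adjusted p = 0.449) and -0.21 without shNC replicate 3, and it was -0.092 without shNC replicate 2 and -0.091 without shSPP1#2 replicate 3.

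DHCR7, the enzyme of the last reduction of one branch, showed how far 1 library could set a value. Its TMM-scaled CPM was 54.9, 54.7 and 56.1 in shNC medium, and 63.5, 63.8 and 49.1 in shSPP1#2 replicates 1, 2 and 3. The shSPP1#2 libraries therefore held the highest and the lowest values, on both sides of a narrow shNC group. The log2 fold change was 0.089 (-0.066 to 0.24, edgeR adjusted p = 0.886). Without shSPP1#2 replicate 3 it was 0.21 (edgeR unadjusted p = 0.00129, adjusted p = 0.304), and without shSPP1#2 replicates 1 or 2 it was 0.030 and 0.027. SC5D behaved alike, at 0.064 with all libraries and 0.14 without shSPP1#2 replicate 3 (unadjusted p = 0.026, adjusted p = 0.727), but at 0.010 without shNC replicate 2, 0.027 without shSPP1#2 replicate 1 and 0.024 without shSPP1#2 replicate 2.

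**Figure D3:**
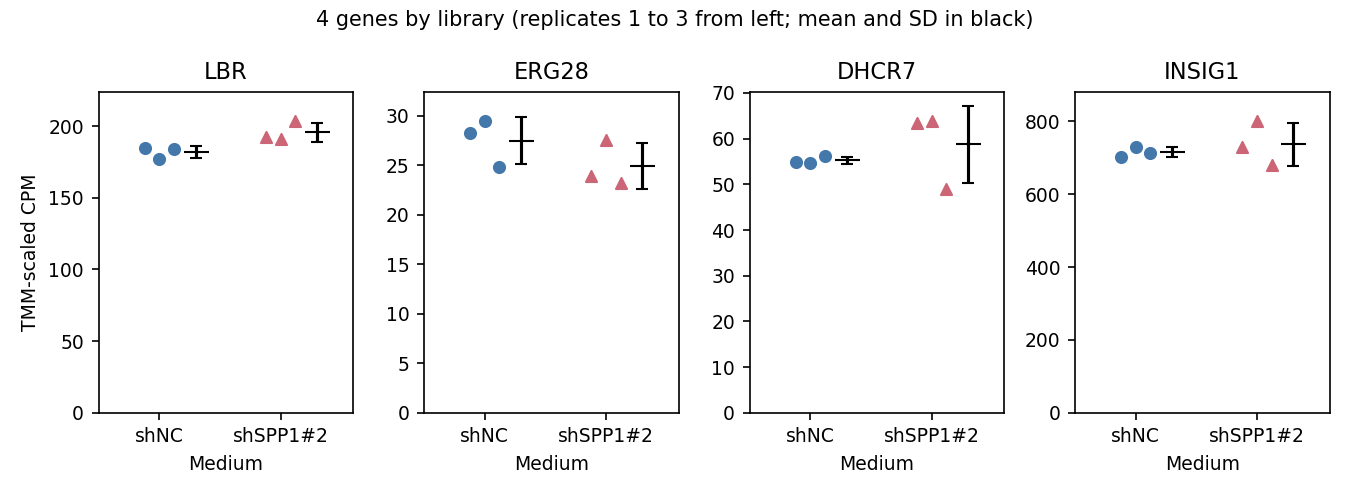
TMM-scaled CPM of LBR, ERG28, DHCR7 and INSIG1 in each library (circles shNC medium, triangles shSPP1#2 medium, replicates 1 to 3 from left), with mean and SD in black and axes from 0. Only LBR among these 4 has groups that do not overlap, and DHCR7 in shSPP1#2 medium runs from 49.1 to 63.8.

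The log2 fold changes of the 6 switch genes were all positive, with a median of 0.038 and none called. SREBF2 measured 0.069 (-0.023 to 0.16, edgeR adjusted p = 0.824), MBTPS2 0.076, MBTPS1 0.032, INSIG1 0.044 (-0.067 to 0.15), INSIG2 0.025 and SCAP 0.0053. Without shSPP1#2 replicate 2 the values of SCAP, INSIG1, INSIG2 and MBTPS1 were negative (-0.067, -0.020, -0.041 and -0.0046), and SCAP was negative also without shNC replicate 1 (-0.018) and without shSPP1#2 replicate 3 (-0.020). The common sign therefore was lost on leaving out any 1 of these 3 libraries. SREBF2 kept a positive value in every fit run, from 0.031 to 0.093.

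Values for the enzymes before the sterol part were all small. The 5 mevalonate genes ran from -0.018 (MVK) to 0.035 (HMGCS1), the 3 isoprenoid genes from -0.044 (GGPS1) to 0.042 (IDI1), and the 3 squalene genes from -0.0041 (LSS) to 0.013 (FDFT1). For the most abundant member, SQLE, the log2 fold change was 0.0079 with a 95% interval from -0.087 to 0.10. In the sterol part 6 of 10 genes were positive and 4 negative, with MSMO1 at 0.053, NSDHL at -0.049 and TM7SF2 at -0.052. With single libraries left out, NSDHL ran from -0.086 to -0.0016 and TM7SF2 from -0.14 to -0.0010. STARD4, a carrier that moves sterol between membranes, measured 0.045 (-0.053 to 0.14).

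The libraries in which the genes peaked were unevenly spread. Of the 28 genes, 15 (53.6%) had their highest value in shSPP1#2 replicate 2, where 15.8% of all genes tested did. For 13 (46.4%) the lowest value was in shSPP1#2 replicate 3, where 16.9% of all genes tested were lowest. This pair of libraries was singled out after the values were seen, and no test was made of it.

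Between these libraries of one medium, 24 of 28 genes were higher in replicate 2, with a median log2 difference of 0.12; among all genes tested 48.9% were higher there, with a median of -0.0040. The gap was widest for DHCR7 (1.30-fold), followed by MVK (1.25-fold), MVD (1.19-fold), ERG28 (1.19-fold) and SC5D (1.18-fold), and it was 1.18-fold for INSIG1. The 4 genes on the other side were GGPS1, LBR, MBTPS2 and STARD4, the last by less than 0.01 on the log2 scale. The median log2 range of the set was 0.16 within shSPP1#2 medium and 0.10 within shNC medium, while that of genes averaging 3 or more on the log2 CPM scale, as all 28 do, was 0.12 in both. shSPP1#2 replicate 2 is also the library that stood apart on the second principal component, and its part in the pattern was not tested.

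**Figure D4:**
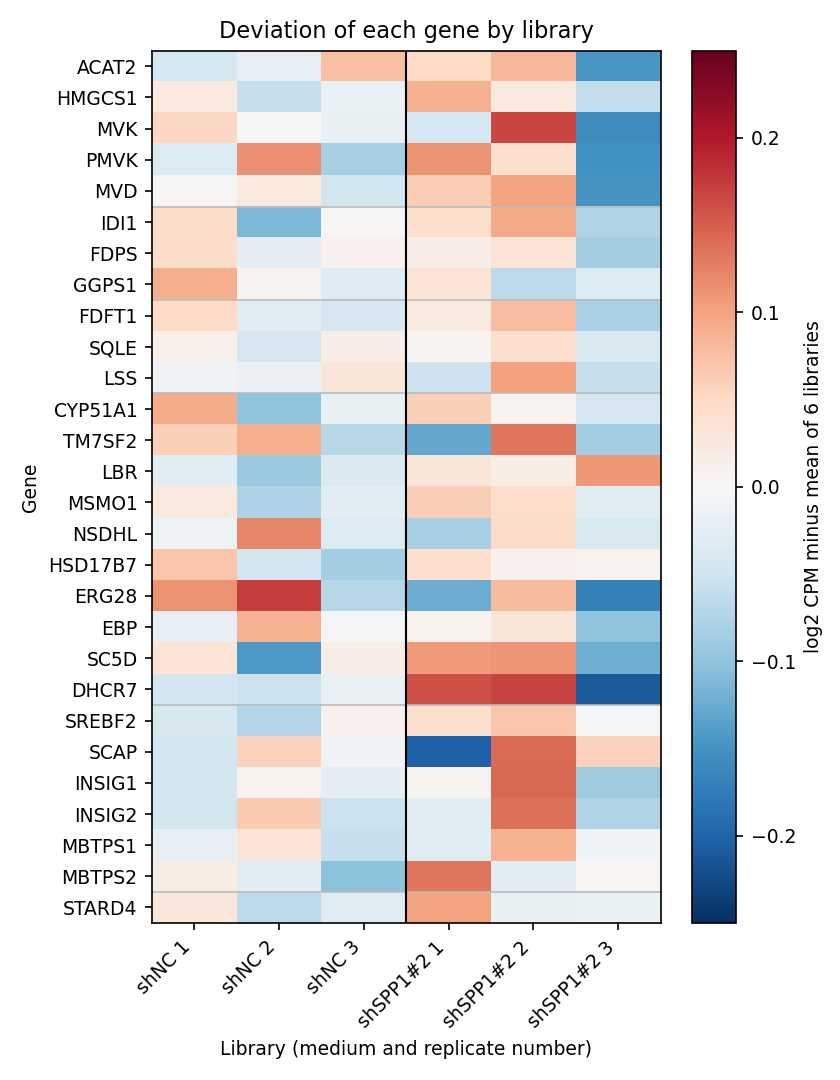
Deviation of each gene in each library, as its log2 CPM relative to the average of that gene in all 6 (red above, blue below), with shNC medium left and shSPP1#2 medium right of the black line. The column of shSPP1#2 replicate 2 holds 15 of the 28 highest values, and that of shSPP1#2 replicate 3 holds 13 of the 28 lowest.

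Other genes around the route, from 4 lists, gave no call either. Among 12 factors of sterol-regulated degradation and SREBP handling, 7 log2 fold changes were positive and 5 negative, with a median of 0.0012. RNF145, a ubiquitin ligase of the endoplasmic reticulum, measured -0.11 (95% interval -0.21 to -0.0043, edgeR adjusted p = 0.71), and PAQR3, a Golgi anchor of SCAP, 0.077. Of 13 genes of prenylation, dolichol and ubiquinone synthesis, which draw on the isoprenoids, 4 were positive and 9 negative, with a median of -0.016. The carboxyl methyltransferase ICMT measured -0.084 and the prenyltransferase subunit PGGT1B 0.088.

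Of 11 genes of sterol uptake, storage and transfer, 9 were positive and 2 negative, with a median of 0.031 and none called. The lipoprotein receptor VLDLR measured 13.9, 13.6 and 13.1 FPKM in shNC medium and 16.6, 15.4 and 15.8 FPKM in shSPP1#2 medium. Its groups did not overlap, and the log2 fold change was 0.23 (0.14 to 0.33, edgeR adjusted p = 0.142). LIPA, the lysosomal acid lipase, measured 0.13 (0.023 to 0.24, edgeR adjusted p = 0.633). Only 3 of 6 oxysterol and bile acid genes were abundant enough to test, with HSD3B7 at 0.035 and CYP7B1 at 0.072, neither called.

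Read assignment limits some of these values. Exons of another gene covered 79.4% of the exonic bases of CYP51A1 (AC000120.2, same strand), 37.3% of GGPS1 (TBCE, same strand) and 33.9% of ACAT2 (SOD2-OT1, opposite strand) in GENCODE v29. Smaller shares were found for other genes of the set. The largest of these were 18.6% for FDPS, 15% for HMGCS1 and 14.8% for IDI1, all from the opposite strand, and 12.2% for MBTPS2 (YY2, same strand). FDPS has 10 pseudogenes named after it in RefSeq, IDI1 and CYP51A1 have 3 each and HSD17B7 has 2. The sources used here do not give how the authors' counting divided such reads or whether it used strand, so levels of these genes are uncertain.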

How the data were processed

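The authors' deposited tables hold estimated counts and FPKM values, each with 17513 genes and 1 column per library. Per the submitters' processing notes, HISAT2 2.0.4, Bowtie2 2.2.5, RSEM and GRCh38.p13 were used, without stated role or order. The deposited estimated counts are unscaled and 78.9% to 80.4% were not whole (tolerance 0.005). The deposited FPKM values are scaled by length and library, by definitions the sources used here do not give. From the FPKM values, 20 stray annotation lines were dropped.

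Estimated counts were rounded, filtered (filterByExpr, 13555 genes, all 28 of the set), TMM-scaled and tested with edgeR 4.0.16 (R 4.3.3), quasi-likelihood, Benjamini-Hochberg over all tested genes, threshold 0.05. All 28 genes were to be accounted for, with those of unadjusted p below 0.05 and SREBF2, SCAP, INSIG1 and INSIG2 in every library; ERG28, DHCR7 and SC5D were chosen after their values were seen. From each other list up to 2 genes of smallest p were named. Members and lists were chosen with earlier results of these data known. DESeq2 1.42.0 and limma 3.58.1 were alternatives, with other scalings, filters, a replicate block and each library left out. Plots used matplotlib 3.10.9.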

Additional observations from a re-analysis of the deposited data

How the results depend on the processing

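None of the 28 genes was called in the 16 refits with edgeR, DESeq2 or limma, though DESeq2 gave 11 of them no adjusted p; an unadjusted p below 0.05 was reached by 0 to 2 of them. Over all genes tested the count of calls was 0 in the main edgeR fit, 18 without a low-count filter, 13 with DESeq2 and 1 with limma on log2(FPKM + 0.1). With single libraries left out it was 1 to 10. It was 7 without shNC replicate 2 and shSPP1#2 replicate 2, a setting chosen after the data were seen. With a replicate block 59 genes were called, none of the 28; LBR then had an edgeR adjusted p of 0.24. Libraries of the 2 media were also correlated after the group mean of each gene was subtracted from its log2 CPM. These correlations describe what remains within groups, not the likeness of whole libraries. For same-numbered libraries they were 0.0733, 0.096 and 0.0481, and for the other pairs -0.0917 to 0.027. Each library correlated best with its own number, but no label ties the numbers. Because centred values within a group offset each other, these correlations are not independent. Pairing cannot change the mean log2 differences of the INSIG1 to INSIG2 and LBR to TM7SF2 ratios, which stay at 0.0075 and 0.17. It changes only the exact p, here from sign changes of the paired differences (0.75 and 0.25). The smallest p that 3 pairs allow is 0.25. The LBR to TM7SF2 ratio was higher in shSPP1#2 medium in all 3 pairs. The median of the 28 ran from -0.016 to 0.061 with single libraries left out, and was -0.030 without both replicates 2.

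Of 448 refitted values of single genes, 407 kept their sign and 41 did not, all of these small and not called; the cause was not tested. LSS was 0.00075 with total counts only. With single libraries left out the log2 fold change ran from -0.049 to 0.064 for ACAT2, -0.0012 to 0.076 for HMGCS1, -0.11 to 0.055 for MVK, -0.052 to 0.081 for PMVK, -0.031 to 0.091 for MVD, -0.0017 to 0.091 for IDI1, -0.045 to 0.016 for FDPS, -0.023 to 0.057 for FDFT1, -0.011 to 0.031 for SQLE, -0.058 to 0.026 for LSS, -0.030 to 0.068 for CYP51A1, -0.065 to 0.00067 for EBP, -0.067 to 0.10 for SCAP, -0.020 to 0.099 for INSIG1, -0.041 to 0.069 for INSIG2 and -0.0046 to 0.055 for MBTPS1. Among genes that kept their sign, it ran from -0.072 to -0.0090 for GGPS1, 0.028 to 0.081 for MSMO1, 0.0073 to 0.088 for HSD17B7, 0.026 to 0.11 for MBTPS2 and 0.0048 to 0.071 for STARD4. The log2 difference of the INSIG1 to INSIG2 ratio ran from -0.018 to 0.021. Without both replicates 2, values were -0.063 for ACAT2, -0.12 for MVK, -0.062 for FDPS, -0.068 for LSS, -0.018 for MVD, -0.039 for IDI1, -0.034 for FDFT1, -0.031 for SQLE, -0.030 for CYP51A1, -0.030 for SC5D (0.010 to 0.14 with single libraries left out), -0.040 for SCAP, -0.0061 for INSIG1 and -0.0043 for INSIG2. Standard errors of the 28 log2 fold changes were 0.044 to 0.10, from counting and from the spread between libraries together, and differences of that size were not detectable with these libraries; depth itself was not varied.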
